A study of Mus musculus with 16 samples.

Results

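The effect of a high fat diet on mouse white adipose tissue was examined as the average over mice with and without the deacetylase SIRT1 in fat. All 16 arrays of the series entered the comparison, 8 from the high fat diet and 8 from the low fat diet. The C57BL6/J mice formed 4 groups of 4 arrays. Knockout mice lacked Sirt1 in adipocytes through an FABP4-Cre transgene and were fed high fat (FABP4-cre-HighFatDiet) or low fat (FABP4-cre-LowFatDiet). Wild-type mice had no Cre transgene and were fed in the same way (WT-HighFatDiet and WT-LowFatDiet). Every group ate its diet for 8 weeks from an age of 4 weeks and was studied at 12 weeks. Cre was driven by the promoter of a fatty acid binding protein of adipocytes, which is known to be active in some other cells too, macrophages among them. No group combined the transgene with intact Sirt1, so the transgene and the loss of Sirt1 cannot be told apart. The sources used here give neither the fat depot nor the sex of the mice, and the labels do not state that replicate samples were taken from different animals. Each p-value therefore measures the spread between these samples, part of which may be technical.

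White fat stores triglyceride in large adipocytes and releases hormones such as leptin. When the tissue expands under a fat-rich diet, macrophages gather around stressed adipocytes, stromal cells lay down collagen, and lipid synthesis and the mitochondria of the adipocytes are known to decline. SIRT1 uses NAD to remove acetyl groups from histones and from transcription factors, and links the nutrient state of the cell to metabolism, inflammation and the circadian clock.

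For each gene the difference between the high fat and the low fat diet was taken within knockout fat and within wild-type fat, and the mean of both differences is called the average diet effect. All differences are on the log2 scale, high minus low fat, so that 1 unit is a 2-fold change, and the value after ± is the standard error (SE). The model held 1 mean for each group, and limma gave the p-values. They were adjusted by the Benjamini-Hochberg method across 12078 tested genes, of 18193 on the array, with a threshold of 0.05. The values are deposited log2 expression values per probe set, and 4 arrays in a group limit their precision.

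The arrays had medians between 4.34 and 4.46 over all probe sets, and arrays of a group correlated with each other at r between 0.987 and 0.996. The tissue was labelled as white adipose tissue, and its adipocyte markers were high: 17 such genes had a mean level per array between 11.4 and 11.8 on the high fat diet and between 11.7 and 12.0 on the low fat diet. Skeletal muscle transcripts differed from array to array on both diets, with a list mean between 4.63 and 7.75 on the high fat diet and between 4.72 and 9.01 on the low fat diet. The 5 arrays with Tnnt3, a fast muscle troponin gene, at a log2 of 8 or more were FABP4-cre-HighFatDiet replicate 4, WT-HighFatDiet replicate 3, FABP4-cre-LowFatDiet replicate 2 and WT-LowFatDiet replicates 3 and 4. Epithelial genes reached a list mean of 6.10 in WT-HighFatDiet replicate 4 and at most 3.62 on the low fat diet. Mesothelial genes, of the lining of visceral fat pads, were highest in that same array at a list mean of 9.80, against a range of 7.82 to 9.23 on the low fat diet. Counts without the 5 arrays rich in muscle transcripts are given where they differ by over 1.5 times.

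Averaged over both genotypes, 2822 genes rose on the high fat diet (23.4% of those tested) and 2334 fell (19.3%), so that 42.7% changed. Of these, 667 rose at least 2-fold (5.52%) and 270 fell at least 2-fold (2.24%). In tissue samples, fewer cells of a type and less RNA per cell cannot be told apart, which holds for every result here. The split between rises and falls depended on the scaling of the arrays. As deposited 54.7% of the called genes were higher on the high fat diet, after centring every array on its median over tested genes 43.7% were, and with quantile normalization 44.9% were.

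The average was made of diet differences that were only partly alike. Within knockout fat 1887 genes rose (15.6%) and 1636 fell (13.5%), and within wild-type fat 2472 rose (20.5%) and 1832 fell (15.2%). The rises had 1052 genes in common (8.71% of genes tested), which is 55.7% of the knockout list and 42.6% of the wild-type list. The falls had 679 in common (5.62%), or 41.5% and 37.1% of the knockout and wild-type lists. No array was used on both sides of this comparison, and across the 12078 genes the knockout and wild-type differences correlated with a Pearson r of 0.534 and a Spearman rho of 0.45, with the same sign in 65.2% of genes. These correlations are across genes, which are not independent replicates. Among genes called for the average, 518 were called in neither genotype alone (4.29% of genes tested), and their median absolute effect was 0.33. Another 2897 were called in 1 genotype (24%), with a median of 0.45, and 1741 in both (14.4%), with a median of 0.90. 

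**Figure D1:**
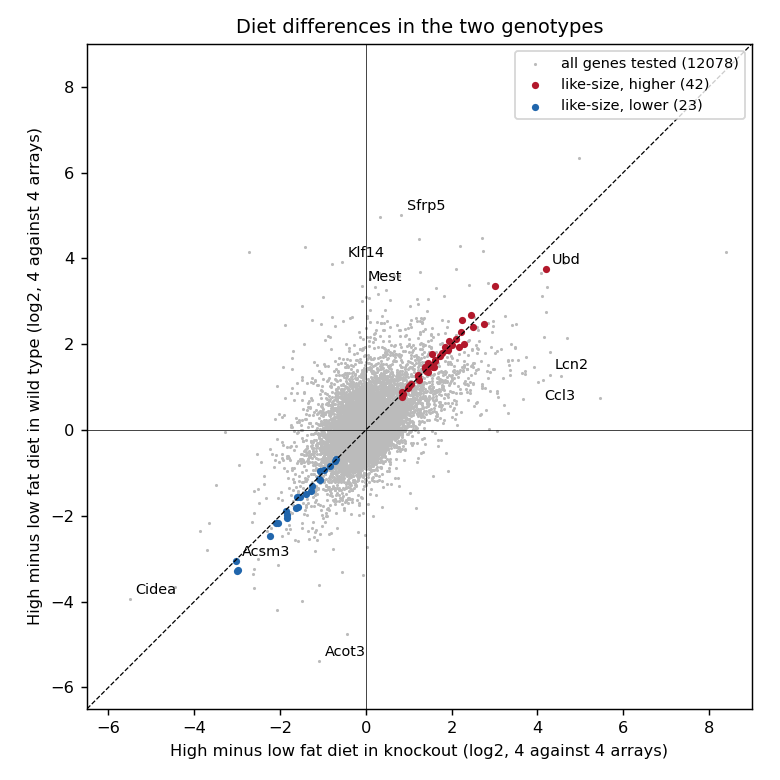
Diet differences of the 12078 genes tested. The horizontal axis gives high minus low fat in knockout fat and the vertical axis high minus low fat in wild-type fat (log2, 4 against 4 arrays each). Grey points are all genes, red and blue points the 42 and 23 genes with a like-size rise or fall, and the dashed line marks equal differences. Sfrp5, Mest and Klf14 lie far above the line and Lcn2 and Ccl3 far below it, where the average describes neither genotype.

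The difference between the diet effects of knockout and wild type was itself past the threshold for 1569 genes (13%), with 618 more positive in knockout fat (5.12%) and 951 more positive in wild-type fat (7.87%). Both the average and this difference were called for 904 genes (7.48%). The 1569 became 424 without the 5 arrays rich in muscle transcripts and 2382 without WT-LowFatDiet replicate 2. Because a p over the threshold does not show that effects are alike, a gene was called like-size only where the 95% confidence interval of the knockout minus wild-type difference stayed within 0.5 times the average effect, and where high fat and low fat arrays did not overlap in either genotype. Over all genes tested such a separation within both genotypes was seen upward for 7.54% and downward for 5.36%. Both conditions held for 65 genes (0.538%), 42 of which were higher (0.348%) and 23 lower (0.19%) on the high fat diet. With a limit of 1 times the average effect 780 genes qualified (6.46%). Leaving out the 5 arrays rich in muscle transcripts left 27, 18 of them among the 65, and with any 1 array left out 43 to 51 of the 65 did. The rule favours genes whose effect is large beside its SE, so the 65 genes are a description and not a test. Just inside the limit lay S100a8 and Man2b1, whose intervals reached 0.499 times the average, and just outside it Ube2c at 0.501 and Nat8l at 0.504.

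**Figure D2:**
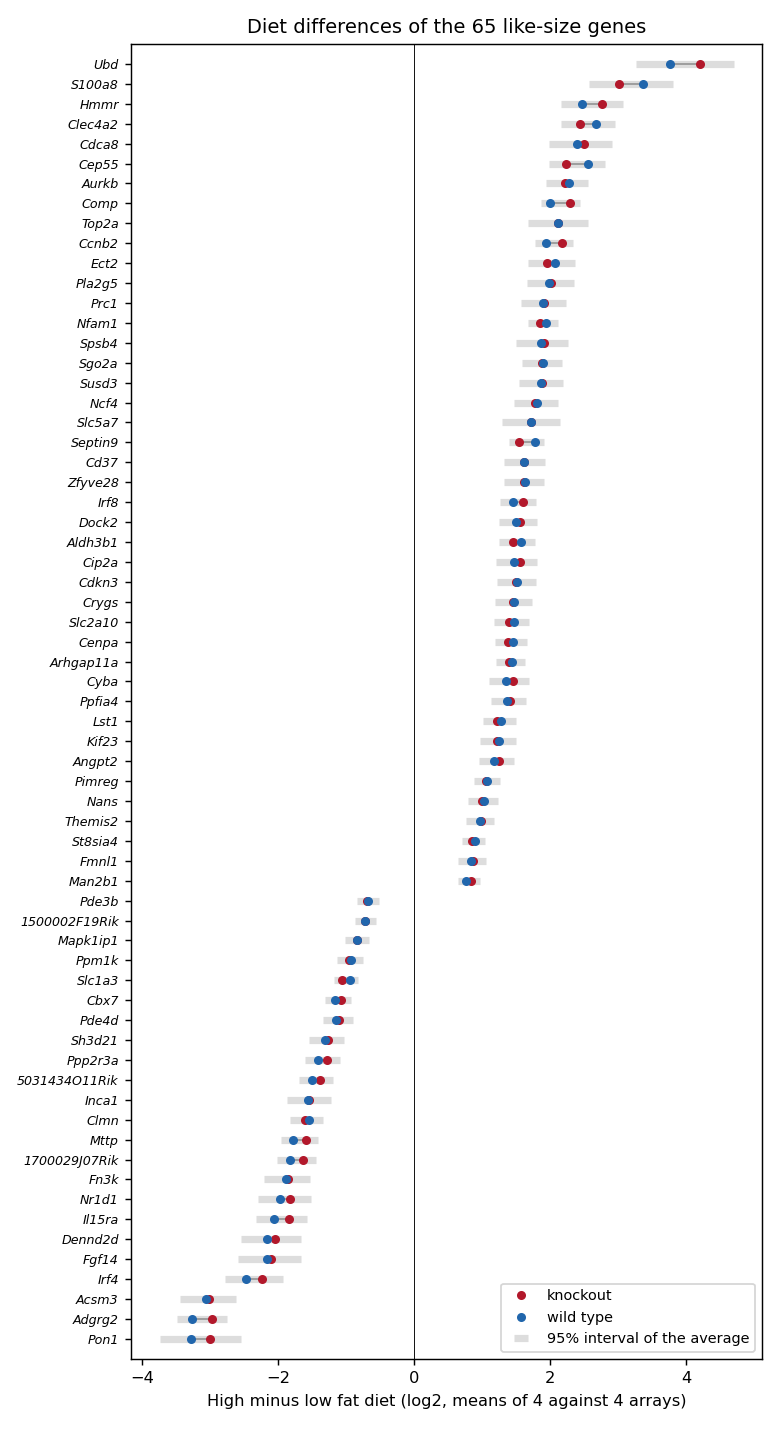
Diet differences of the 65 like-size genes (log2, high minus low fat). Red points are knockout fat and blue points wild-type fat, each from 4 against 4 arrays, and the pale bar is the 95% confidence interval of their average. The pair of points lies within the bar or next to it for each gene, between Ubd at the top and Pon1 at the bottom.

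The largest of the 10 named like-size rises was that of Ubd, which encodes FAT10, a ubiquitin-like protein induced by inflammatory cytokines. It had log2 values of 11.63, 12.16, 11.94 and 11.84 (knockout) and 9.60, 10.96, 11.19 and 11.25 (wild type) on the high fat diet, against 9.02, 7.97, 6.91 and 6.85 (knockout) and 8.18, 6.54, 6.82 and 6.44 (wild type) on the low fat diet. All high fat arrays lay above all low fat arrays, and WT-HighFatDiet replicate 1 was the lowest of the high fat arrays. The average rise was 3.98 ± 0.34, made of 4.21 in knockout and 3.76 in wild-type fat. S100a8, for a calcium-binding subunit of calprotectin made by neutrophils and monocytes, had 10.83, 10.30, 11.07 and 11.40 (knockout) and 8.10, 8.44, 8.60 and 8.88 (wild type) on the high fat diet, against 8.35, 7.76, 6.54 and 8.89 (knockout) and 5.80, 4.28, 5.35 and 5.12 (wild type) on the low fat diet. The groups did not overlap within a genotype, but low fat knockout arrays reached the level of high fat wild-type arrays. Its average rise was 3.19 ± 0.29, with 3.01 in knockout and 3.37 in wild-type fat. Clec4a2, a C-type lectin receptor gene of myeloid cells, was at 9.93, 9.40, 9.75 and 9.63 (knockout) and 8.30, 8.76, 8.23 and 8.52 (wild type) on the high fat diet, against 7.63, 7.75, 6.88 and 6.65 (knockout) and 5.48, 6.25, 5.19 and 6.19 (wild type) on the low fat diet. All 8 high fat arrays exceeded all 8 low fat arrays, by 2.56 ± 0.19 on average.

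Of the 42 like-size rises 3 belonged to a gene list used here, the cell cycle list, and these were Aurkb, Top2a and Ccnb2. Aurkb encodes the kinase of the chromosomal passenger complex and Cdca8 another subunit of it, borealin. Aurkb was at 7.13, 7.21, 7.15 and 7.05 (knockout) and 5.83, 6.76, 5.89 and 5.88 (wild type) on the high fat diet, against 4.86, 5.27, 4.75 and 4.82 (knockout) and 4.05, 4.16, 3.43 and 3.60 (wild type) on the low fat diet. The diets were fully separated, with an average rise of 2.25 ± 0.14 and nearly equal parts of 2.21 in knockout and 2.28 in wild-type fat. Cdca8 rose by 2.44 ± 0.22, with 2.50 in knockout and 2.39 in wild-type fat, and its arrays lay between 6.58 and 8.68 on the high fat diet and between 4.21 and 6.41 on the low fat diet. Top2a, the topoisomerase that untangles replicated DNA, had 7.50, 7.93, 7.63 and 7.65 (knockout) and 6.47, 7.42, 6.10 and 7.21 (wild type) on the high fat diet, against 5.86, 6.05, 5.07 and 5.30 (knockout) and 5.15, 4.77, 4.79 and 4.02 (wild type) on the low fat diet. The diets were again separated over all 16 arrays, and the differences of 2.11 in knockout and 2.12 in wild-type fat were the closest pair among the 10 rises. Ccnb2, the cyclin B2 gene, was between 4.32 and 5.94 on the high fat diet and between 2.48 and 4.07 on the low fat diet, and rose by 2.05 ± 0.13, or by 1.26 with values under a log2 of 4 set to 4. Low values on this scale depend on the background correction. Hmmr, for a spindle-associated hyaluronan receptor, rose by 2.61 ± 0.21, or by 1.40 with that floor. Cep55, a gene of the final separation of daughter cells, rose by 2.40 ± 0.19. The arrays of both genes overlapped between diets across the genotypes, but not within either.

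Comp encodes cartilage oligomeric matrix protein, an extracellular matrix protein of cartilage and tendon, and had 6.98, 7.06, 6.99 and 7.53 (knockout) and 6.31, 6.18, 6.51 and 5.57 (wild type) on the high fat diet, against 4.79, 5.16, 4.61 and 4.81 (knockout) and 4.39, 3.93, 4.20 and 4.08 (wild type) on the low fat diet. All high fat arrays lay above all low fat arrays, and the average rise was 2.15 ± 0.13. Among the remaining 32 like-size rises were the centromere histone gene Cenpa (average 1.42), the cytokinesis genes Ect2 (2.01) and Prc1 (1.90) and the kinesin gene Kif23 (1.23, or 0.70 floored at 4). Others were Ncf4 (1.79) and Cyba (1.40) of the phagocyte NADPH oxidase, the transcription factor gene Irf8 of myeloid cells (1.53), Nfam1 (1.89), Cd37 (1.62) and Dock2 (1.53). These were picked from the 32 after their values were seen. Angpt2, the angiopoietin 2 gene of vessel remodelling, had an average of 1.21. The 42 rises ran from 0.80 for Man2b1 to 3.98 for Ubd. For 15 of them the lowest group mean lay under a log2 of 4, so their size depends on low values. Floored at 4, the average went from 1.46 to 0.11 for Crygs and from 1.07 to 0.12 for Pimreg. It went from 2.00 to 0.97 for Pla2g5 and from 1.62 to 0.94 for Zfyve28, but only from 2.25 to 2.12 for Aurkb. Rises and falls together, 51 genes were like-size with that floor, fewer than without it. Of the 42 rises, 26 separated all 8 high fat from all 8 low fat arrays. Over all genes tested such a separation was seen upward for 337 genes (2.79%) and downward for 331 (2.74%). The like-size rule already required separation within each genotype, so a higher share among its rises and falls was set in part by that choice.

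Among the like-size falls, 2 of 23 belonged to a gene list used here, the clock gene Nr1d1 and Pde3b of the insulin list. Pon1, for paraoxonase 1, a lactone-cleaving esterase known from blood lipoproteins, had 3.92, 3.85, 4.29 and 3.13 (knockout) and 5.60, 4.07, 4.58 and 4.68 (wild type) on the high fat diet, against 5.94, 6.86, 6.71 and 7.72 (knockout) and 8.40, 7.16, 8.60 and 7.88 (wild type) on the low fat diet. The diets did not overlap, and the average fall of 3.14 ± 0.28 was the largest among like-size genes. Adgrg2, an adhesion G protein-coupled receptor gene, was at 5.68, 5.65, 6.44 and 5.86 (knockout) and 8.50, 7.78, 7.55 and 7.69 (wild type) on the high fat diet, against 8.48, 8.52, 9.09 and 9.42 (knockout) and 11.36, 11.23, 10.95 and 11.03 (wild type) on the low fat diet. The lowest low fat array, of knockout fat, lay just below the highest high fat array, of wild-type fat, while within each genotype the diets were apart. It fell by 3.12 ± 0.17. Acsm3, a mitochondrial acyl-CoA synthetase gene for medium-chain fatty acids, had 6.49, 7.57, 6.66 and 6.87 (knockout) and 9.02, 8.70, 8.71 and 8.52 (wild type) on the high fat diet, against 9.19, 9.55, 10.24 and 10.68 (knockout) and 11.70, 11.77, 11.94 and 11.75 (wild type) on the low fat diet. High fat and low fat arrays did not overlap, and the differences were -3.02 in knockout and -3.05 in wild-type fat. Irf4 encodes a transcription factor known in lymphocytes and in macrophages, and in mouse adipocytes as a nutrient-responsive regulator of lipolysis. It was at 8.44, 9.12, 8.77 and 8.39 (knockout) and 10.10, 10.07, 9.45 and 9.66 (wild type) on the high fat diet, against 10.58, 11.19, 11.53 and 10.35 (knockout) and 12.74, 12.78, 11.76 and 11.88 (wild type) on the low fat diet. It fell by 2.35 ± 0.20 with no overlap of the diets, while its relative Irf8 rose.

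Fgf14, of the intracellular fibroblast growth factor homologous factors, fell by 2.13 ± 0.22. Dennd2d, for an exchange factor of Rab proteins, fell by 2.10 ± 0.21 and was between 4.59 and 6.98 on the high fat diet and between 6.57 and 9.09 on the low fat diet. Il15ra, the interleukin-15 receptor alpha gene, was between 6.90 and 8.13 on the high fat diet and between 8.84 and 10.07 on the low fat diet and fell by 1.95 ± 0.18. The core clock repressor gene Nr1d1 (REV-ERB alpha) had 7.31, 7.0, 6.24 and 6.13 (knockout) and 8.19, 8.09, 7.67 and 7.29 (wild type) on the high fat diet, against 8.53, 8.77, 8.25 and 8.46 (knockout) and 10.06, 9.36, 9.76 and 9.97 (wild type) on the low fat diet. Its diets did not overlap, and it fell by 1.90 ± 0.18, by 1.83 in knockout and 1.98 in wild-type fat. Fn3k, a kinase gene of protein deglycation, fell by 1.87 ± 0.16. Mttp, the microsomal triglyceride transfer protein gene of lipid loading, was between 4.55 and 5.19 on the high fat diet and between 6.16 and 7.21 on the low fat diet, and fell by 1.69 ± 0.13. Among the other 13 falls were the phosphodiesterase genes Pde3b, an enzyme through which insulin restrains lipolysis, and Pde4d, with averages of -0.68 and -1.12, and the glutamate transporter gene Slc1a3 with -1.01. Ppm1k, the phosphatase gene that activates branched-chain keto acid dehydrogenase, had -0.94. The 23 falls ran from 0.68 for Pde3b to 3.14 for Pon1, 17 separated all 16 arrays by diet, and 3 had provisional symbols and are not named. The adjusted p-values of the 65 genes, which took part in their choice, ran from 1.45e-08 to 4.91e-06.

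**Figure D3:**
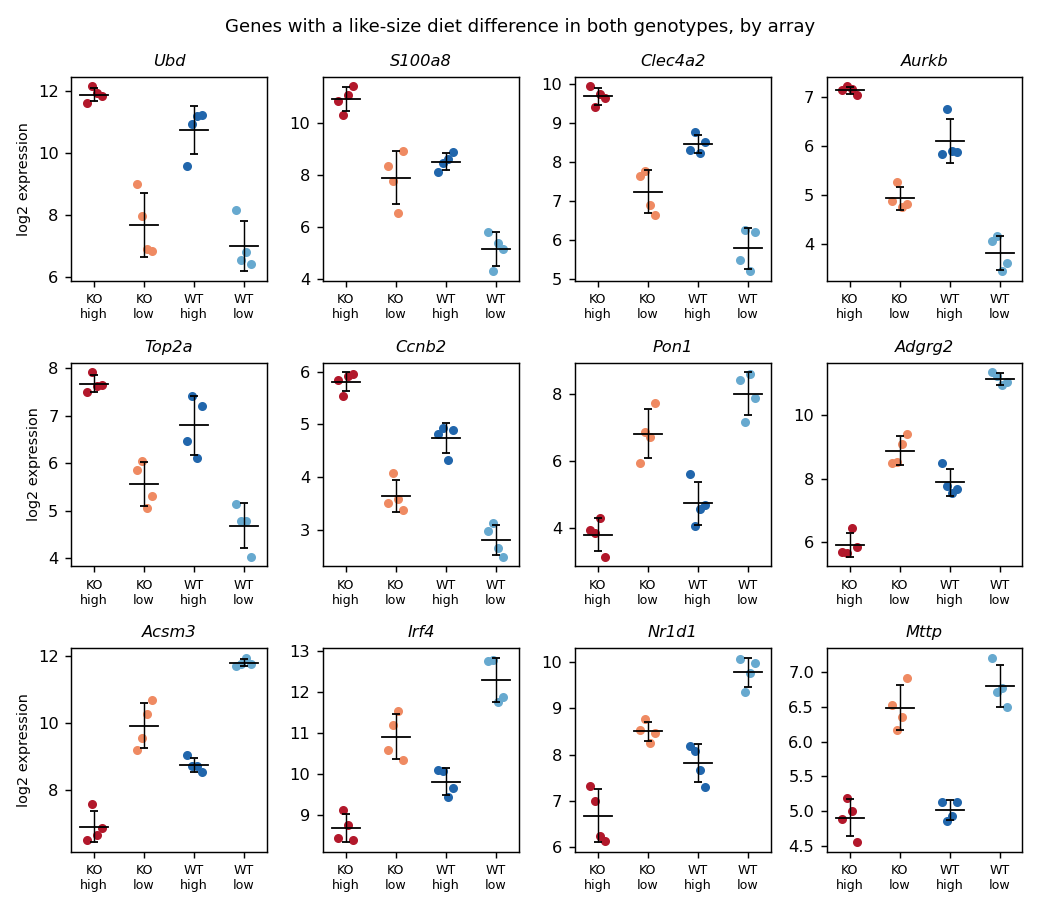
Log2 expression of 12 like-size genes in each array, by group (KO, knockout; WT, wild type; high and low, the diets). Points are arrays, the line is the mean and the bar the SD of 4 arrays. In every panel the step between diets is of similar height in both genotypes, and in most panels knockout fat sits further along the direction of the diet effect, as for Adgrg2, at 5.65 to 6.44 in high-fat-fed knockout and 7.55 to 8.50 in high-fat-fed wild-type mice.

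Knockout and wild type started from different levels in these genes. Over both diets, a comparison added after the data were seen, 40 of the 42 like-size rises were also higher in knockout than in wild-type fat and none was lower, where 13.4% of all genes tested were higher. The median of this genotype difference was 0.88 over the 42 genes, against 0.02 over all genes tested. Of the 23 falls 21 were lower in knockout fat and none was higher, where 7.87% of all genes tested were lower, and their median was -0.84. Adgrg2 was lower in knockout fat by 2.12 (adjusted p = 2.11e-06) and S100a8 higher by 2.57 (adjusted p = 3.59e-05) in the same limma fit. Exceptions were Ubd, whose difference of 0.92 missed the threshold (adjusted p = 0.0648), Nans (0.27, adjusted p = 0.0848), Il15ra (-0.40, adjusted p = 0.121) and Mttp (-0.21, adjusted p = 0.273). The direction was not particular to like-size genes: among all 2822 rises 1359 were higher and 7 lower in knockout fat, and among all 2334 falls 748 were lower and 12 higher. Among the rises, Crygs and Pimreg reached a log2 of 4 only in the high fat knockout arrays and so were tested through that group alone. For such genes the filter itself favoured a higher level in knockout fat and on the high fat diet. The genotype and diet differences come from the same 16 arrays, and a gene with little spread passes both tests more easily. The median SE of the average effect was 0.13 for like-size rises and for falls, against 0.12 over all genes tested.

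Gene lists were described by the number of members called and by their median, beside 23.4% higher and 19.3% lower among all genes tested and a median of 0.01. The lists were drawn up with earlier results of these data known, so their direction is not independent evidence. Each gene said below to rise or fall passed the threshold of the limma fit, with adjusted p-values for the average between 1.45e-08 (Sfrp5) and 0.0329 (Cd79a).

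Cell cycle genes stood out by the number called. Of 21 tested, 20 rose, 17 of them in both genotypes separately, and the median was 1.57, with 1.92 in knockout and 1.39 in wild-type fat. Besides Aurkb, Top2a and Ccnb2, the spindle checkpoint kinase gene Bub1 rose by 2.20 ± 0.17, but not alike, with 2.96 in knockout and 1.43 in wild-type fat (interaction 1.53, adjusted p = 0.0081). None of its low fat values reached a log2 of 4, and floored at 4 its rise was 0.91. Cdc20, the activator of the anaphase-promoting complex, had an average of 1.39 and Tk1, for thymidine kinase, of 2.70.

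Many genes of mitosis share a CHR element and CCAAT boxes near their start, through which MuvB and NF-Y complexes are known to act. For this reason promoters are shown for those 3 of the 5 cell cycle genes with the smallest p, among genes of the promoter table, that held a match. Each runs from 250 bases before to 50 after the start of the gene in RefSeq (mouse build GRCm38.p6), 5′ to 3′ on the strand of the gene, with TTTGAA (CHR) and CCAAT in capitals on either strand. Ccnb2 lies at chr9:70421505-70421804 on the minus strand, Bub1 at chr2:127831810-127832109 on the minus strand and Cdc20 at chr4:118437294-118437593 on the minus strand.
Ccnb2: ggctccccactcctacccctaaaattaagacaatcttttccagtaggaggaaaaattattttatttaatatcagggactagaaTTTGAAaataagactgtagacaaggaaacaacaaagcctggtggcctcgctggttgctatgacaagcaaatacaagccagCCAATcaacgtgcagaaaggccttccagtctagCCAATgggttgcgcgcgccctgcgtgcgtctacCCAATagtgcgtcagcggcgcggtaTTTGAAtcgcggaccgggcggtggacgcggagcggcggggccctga
Bub1: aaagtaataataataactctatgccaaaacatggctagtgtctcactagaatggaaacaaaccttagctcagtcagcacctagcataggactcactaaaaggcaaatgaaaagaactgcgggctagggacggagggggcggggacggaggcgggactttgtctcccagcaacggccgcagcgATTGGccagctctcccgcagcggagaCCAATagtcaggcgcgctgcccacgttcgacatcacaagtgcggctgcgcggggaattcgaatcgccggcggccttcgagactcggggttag
Cdc20: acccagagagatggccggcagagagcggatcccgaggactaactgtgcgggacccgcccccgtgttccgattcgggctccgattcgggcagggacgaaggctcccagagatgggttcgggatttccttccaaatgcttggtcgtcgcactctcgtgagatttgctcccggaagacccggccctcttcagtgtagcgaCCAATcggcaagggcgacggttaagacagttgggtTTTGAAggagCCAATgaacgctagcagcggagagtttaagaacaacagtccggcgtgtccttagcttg
Ccnb2 held 2 CHR and 3 CCAAT matches, Bub1 0 and 2, and Cdc20 1 and 2. Of 18 cell cycle genes that rose and had a promoter in the table, 8 held TTTGAA (44.4%) and 14 CCAAT (77.8%), on either strand. Over all 32851 promoter windows the shares were 17.9% and 37.4%, and over the windows of all genes tested 12% and 37.3%. The windows of Tk1 and Birc5 held neither. A match of letters is a description of the window and does not show binding.

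Macrophage markers rose in 20 of 23 genes, with a median of 1.07 and 16 called in both genotypes, and none fell. Adgre1, which encodes the surface marker F4/80, was at 12.05, 11.38, 11.86 and 11.61 (knockout) and 10.53, 10.79, 10.55 and 10.80 (wild type) on the high fat diet, against 10.70, 10.71, 10.43 and 9.88 (knockout) and 9.14, 9.996, 9.20 and 9.34 (wild type) on the low fat diet. Within each genotype the diets did not overlap, but low fat knockout arrays reached the level of high fat wild-type arrays, and the average rise was 1.27 ± 0.15. Itgax, for CD11c, an integrin of dendritic cells and of inflammatory macrophages, had 10.48, 9.92, 10.11 and 9.88 (knockout) and 7.02, 8.99, 8.14 and 8.70 (wild type) on the high fat diet, against 7.77, 7.10, 7.43 and 7.14 (knockout) and 5.25, 3.69, 3.73 and 3.45 (wild type) on the low fat diet. It rose by 3.46 ± 0.28, with 2.74 in knockout and 4.18 in wild-type fat. The Fc receptor chain gene Fcer1g rose by 1.07 ± 0.10, with all high fat arrays above all low fat arrays. The lectin receptor gene Clec7a rose by 1.53 ± 0.10, more in knockout fat (1.97) than in wild-type fat (1.10, adjusted p = 0.0115 for the difference). At the limit of 1 times the average 10 of the 23 markers were like-size, and at 0.5 times none was. The marker list as a whole had a mean level per array of 10.1 to 11.2 on the high fat diet and 9.28 to 10.2 on the low fat diet.

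Genes of lipid-loaded macrophages and lysosomes rose in 16 of 19, with a median of 1.07. The lipid-sensing receptor gene Trem2 had 10.39, 10.16, 10.40 and 9.86 (knockout) and 6.12, 8.08, 5.86 and 7.89 (wild type) on the high fat diet, against 5.66, 5.84, 5.23 and 5.31 (knockout) and 4.74, 5.03, 4.71 and 4.91 (wild type) on the low fat diet. Every high fat array lay above every low fat array, but the rise was larger in knockout fat, 4.69 against 2.14 in wild-type fat (adjusted p = 0.0071 for the difference), so that the average of 3.42 describes neither. In wild-type fat, replicates 1 and 3 of the high fat diet stood about 2 units below replicates 2 and 4. Slc37a2, a sugar-phosphate carrier gene of macrophages, showed the same split of the wild-type high fat arrays, at 6.08, 8.28, 6.34 and 8.17. It rose by 3.16 ± 0.28 on average, and its diet effect was more positive in knockout fat by 1.98, a difference past the threshold. Ctsk, for cathepsin K, rose by 1.95 ± 0.15, with 2.36 in knockout and 1.53 in wild-type fat and no overlap of the diets.

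Chemokine and cytokine genes rose in 13 of 18 and fell in 2, Il18 and Il33, with a median of 0.83. Tnf, Il6, Il1b, Il10 and Cx3cl1 were on the array but did not pass the filter on low values and were not tested. The medians were 0.57 in knockout and 0.88 in wild-type fat. In knockout fat 8 were called higher and 3 lower, and in wild-type fat 10 and 0. The difference between genotypes was called for 6, with 4 more positive in wild-type fat and 2 in knockout fat. The monocyte attractant gene Ccl7 rose by 2.58 ± 0.26, or 1.91 floored at 4, with 2.72 in knockout and 2.45 in wild-type fat and all high fat arrays above all low fat ones. Ccl3, for MIP-1 alpha, rose by 2.57 ± 0.24 on average, through 4.02 in knockout against 1.12 in wild-type fat. Its low fat values all lay under 4, and its average was 1.80 with the floor. Tgfb1, the fibrosis-promoting growth factor gene, rose by 1.64 ± 0.18. Il33, an alarmin of stromal cells, fell by 1.26 ± 0.17. The call of Il18 was lost in several fits that left out 1 array.

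Of the inflammasome and caspase genes 10 of 15 rose and 1, Il18, fell, with a median of 0.49 and no member whose diet effect differed between genotypes past the threshold. Nlrp3 and Il1b were on the array but did not pass the filter on low values, so these counts leave them out. Il1rn, for the antagonist of the interleukin-1 receptor, had 10.89, 10.54, 10.56 and 10.77 (knockout) and 6.27, 9.83, 7.05 and 9.15 (wild type) on the high fat diet, against 6.72, 6.31, 5.88 and 5.30 (knockout) and 4.57, 4.14, 3.55 and 4.46 (wild type) on the low fat diet. Its average rise of 4.26 ± 0.41 was the largest of the list, and the wild-type high fat arrays ranged over more than 3 units. Pycard, the inflammasome adaptor gene, rose by 1.84 ± 0.17, the sensor gene Naip2 by 1.72 ± 0.16 and Casp1, for the protease that matures interleukin-1 beta, by 0.68 ± 0.10. Casp1 was at 11.22, 10.91, 10.77 and 10.86 (knockout) and 9.96, 10.13, 10.17 and 10.01 (wild type) on the high fat diet, against 10.29, 10.03, 9.88 and 9.85 (knockout) and 9.31, 9.87, 9.82 and 9.57 (wild type) on the low fat diet. Its diets did not overlap within a genotype, and the differences were 0.93 in knockout and 0.43 in wild-type fat (adjusted p = 0.113 for the difference).

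Lymphocyte markers (3 of 13 higher, median 0.17) and interferon-response genes (4 of 13 higher, median 0.17) were near the 23.4% of all genes for the average, and no member fell. The genotypes differed in sign behind this average, with lymphocyte medians of -0.31 in knockout and 0.56 in wild-type fat and interferon medians of -0.16 and 0.61 in the same order. Of the interferon genes 1 rose and 2 fell in knockout fat and 7 rose in wild-type fat, and the difference between genotypes was called for 4. Among lymphocyte markers 1 rose and 1 fell in knockout fat and 5 rose in wild-type fat, and the difference was called for 3. Gzma, a granzyme gene of cytotoxic cells, rose by 1.37 ± 0.27, mostly through wild-type fat (0.42 in knockout, 2.33 in wild type). The B cell receptor gene Cd79b rose by 0.92 ± 0.15, with 0.93 in knockout and 0.91 in wild-type fat. Its partner Cd79a had an average of 0.30, or 0.08 floored at 4, and lost its call under 14 of 26 other settings. Among interferon targets Oas1a rose by 1.10 ± 0.16, Bst2 by 0.82 ± 0.15 and Mx1 by 0.73 ± 0.18.

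**Figure D4:**
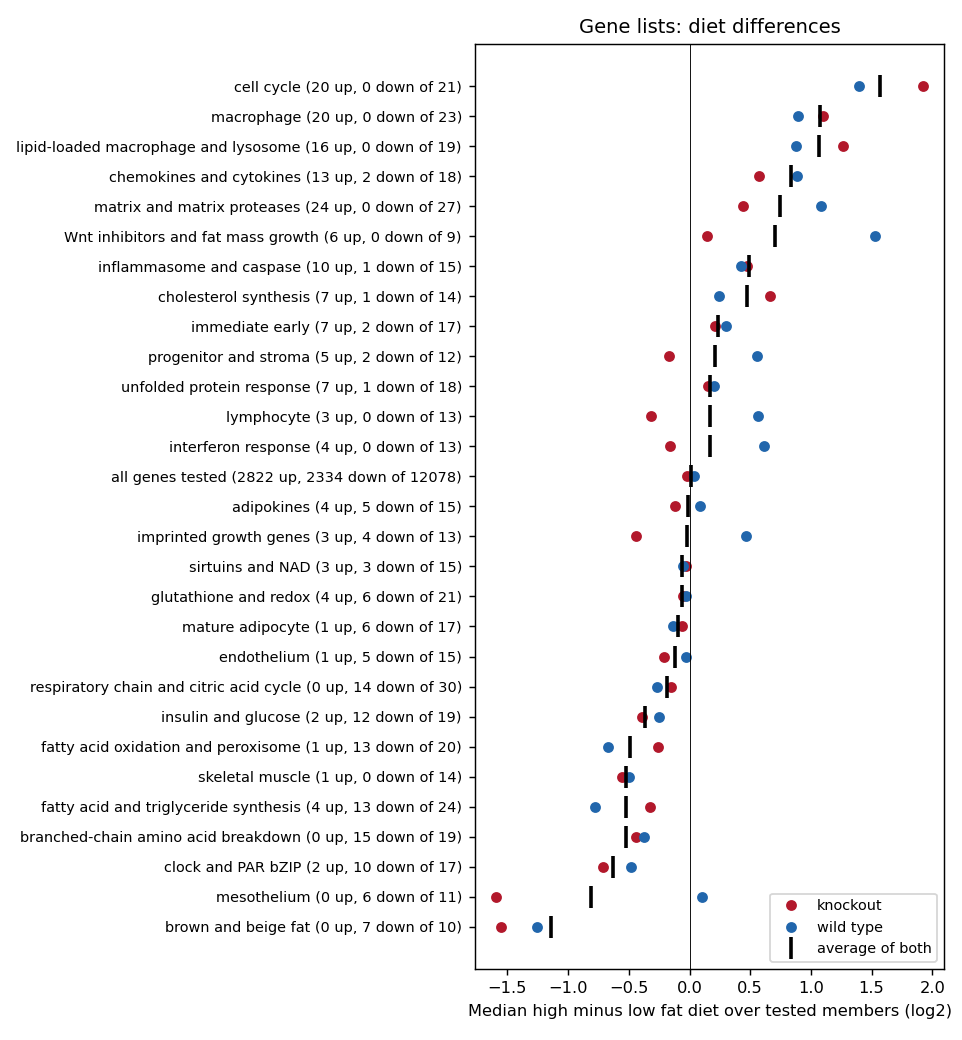
Median diet difference (log2, high minus low fat) over the tested members of each gene list with at least 9 such members. Red points are knockout fat, blue points wild-type fat and black bars the average of both, and each label gives the members that rose and fell for the average. Cell cycle genes have the highest median of the average, 1.57, and brown and beige fat genes the lowest, -1.14. Matrix genes have medians of 0.44 in knockout and 1.09 in wild-type fat, and mesothelial genes of -1.59 and 0.11.

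Matrix genes rose in 24 of 27 with none falling and a median of 0.75, but with unequal medians: it was 0.44 in knockout and 1.09 in wild-type fat, and 13 were called in knockout against 24 in wild-type fat. Timp1, for an inhibitor of metalloproteases, had 8.96, 7.56, 8.91 and 8.28 (knockout) and 6.48, 7.85, 6.22 and 6.78 (wild type) on the high fat diet, against 5.64, 6.21, 5.27 and 4.71 (knockout) and 4.78, 4.70, 4.005 and 4.15 (wild type) on the low fat diet. All high fat arrays lay above all low fat arrays, with an average rise of 2.70 ± 0.27. The stromelysin gene Mmp3 rose by 1.61 ± 0.11, with 2.01 in knockout and 1.20 in wild-type fat (adjusted p = 0.0208 for the difference). Col15a1, a basement membrane collagen gene, rose by 2.11 ± 0.15 on average. Its differences were 0.65 in knockout and 3.58 in wild-type fat, where the low fat arrays lay at 7.82, 7.22, 6.86 and 6.53 and the knockout low fat arrays at 10.52, 10.35, 9.82 and 10.20.

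The list of Wnt inhibitors and fat mass genes rose in 6 of 9, with medians of 0.14 in knockout and 1.53 in wild-type fat. Sfrp1, a secreted Wnt antagonist gene, rose by 1.41 ± 0.14, with 1.29 in knockout and 1.53 in wild-type fat, and was like-size only at the limit of 1 times the average. For its relatives Sfrp4 (0.42 in knockout, 2.48 in wild type) and Sfrp5 (0.82 and 5.01 in the same order) the difference between genotypes passed the threshold. Imprinted growth genes had 3 of 13 higher (Mest, Meg3 and Asb4) and 4 lower (Peg3, Igf2, Cdkn1c and Grb10). Among all genes tested 23.4% were higher and 19.3% lower, and the list median was -0.02. The list medians by genotype were of opposite sign, -0.44 in knockout and 0.46 in wild-type fat. Cdkn1c, for the cell cycle inhibitor p57, fell by 0.91 ± 0.11 with no overlap of the diets. Asb4, of a ubiquitin ligase adaptor, rose by 1.31 ± 0.23.

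Among hormones of fat, 4 of 15 rose (Lep, Lcn2, Saa3 and Metrnl) and 5 fell (Retn, Rbp4, Nampt, Nrg4 and Gpx3). The list median was -0.02, and 23.4% of all genes tested rose and 19.3% fell. The leptin gene Lep had 12.85, 13.25, 13.21 and 13.31 (knockout) and 12.89, 13.22, 13.30 and 13.16 (wild type) on the high fat diet, against 12.71, 12.77, 12.80 and 12.98 (knockout) and 11.66, 11.74, 11.15 and 12.05 (wild type) on the low fat diet. Only the low fat wild-type arrays stood apart, below all others, and the average of 0.92 ± 0.12 was made of 0.34 in knockout and 1.49 in wild-type fat (adjusted p = 0.00524 for the difference). Nrg4, a growth factor gene that brown fat secretes, was at 9.79, 10.65, 9.89 and 10.04 (knockout) and 10.81, 10.82, 10.95 and 10.57 (wild type) on the high fat diet, against 11.65, 11.77, 12.03 and 12.22 (knockout) and 11.91, 11.75, 12.02 and 11.95 (wild type) on the low fat diet. It fell in every high fat array below every low fat array, by 1.47 ± 0.12. Metrnl, for a meteorin-like secreted protein, rose by 1.56 ± 0.16 and Lcn2, for lipocalin 2, by 2.78 ± 0.27 on average. The diet effect of Lcn2 was more positive in knockout than in wild-type fat by 3, a difference past the threshold.

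Brown and beige fat genes fell in 7 of 10 and none rose, with a median of -1.14. Cidea, a lipid droplet protein gene of brown fat, had 4.46, 5.53, 4.07 and 4.46 (knockout) and 7.68, 4.83, 5.04 and 7.15 (wild type) on the high fat diet, against 8.50, 9.91, 11.03 and 11.09 (knockout) and 11.01, 10.36, 9.97 and 9.15 (wild type) on the low fat diet. No high fat array reached the lowest low fat array, and the average fall of 4.73 ± 0.47 was the largest among all genes tested. Ucp1, for the uncoupling protein that makes heat, was at 5.90, 7.23, 4.81 and 6.04 (knockout) and 8.19, 4.74, 4.57 and 6.37 (wild type) on the high fat diet, against 9.10, 9.68, 11.12 and 11.84 (knockout) and 10.35, 10.05, 10.27 and 7.80 (wild type) on the low fat diet. The diets overlapped in wild-type fat, through WT-HighFatDiet replicate 1 and WT-LowFatDiet replicate 4, and the fall was 4.05 ± 0.57. Cox8b, a respiratory subunit gene of brown fat and muscle, fell by 1.71 in knockout and 1.65 in wild-type fat. Ppargc1b, Cox7a1, Elovl3 and Dio2 fell as well.

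Fatty acid and triglyceride synthesis genes fell in 13 of 24 and rose in 4 (Scd2, Pnpla3, Fads2 and Pgd), with a median of -0.52. The fatty acid elongase gene Elovl6 had 6.40, 6.62, 6.36 and 6.29 (knockout) and 7.51, 6.96, 6.92 and 8.23 (wild type) on the high fat diet, against 9.67, 10.36, 9.22 and 11.87 (knockout) and 10.80, 9.21, 9.92 and 9.13 (wild type) on the low fat diet. Its diets did not overlap, and it fell by 3.11 ± 0.34. Acacb, for the acetyl-CoA carboxylase that restrains fatty acid oxidation, was between 9.50 and 10.56 on the high fat diet and between 10.74 and 12.85 on the low fat diet and fell by 1.88 ± 0.19. Gpam, of the first step of triglyceride synthesis, fell by 0.79 in knockout and 0.99 in wild-type fat without overlap. Without the 5 arrays rich in muscle transcripts 2 members rose in place of 4.

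The genes that burn fatty acids fell too, in 13 of 20, with a median of -0.49 and 1 rise, of Cpt1a. Ppara, for the nuclear receptor that drives fatty acid oxidation, had 3.94, 4.45, 4.35 and 3.99 (knockout) and 4.86, 3.94, 4.34 and 4.88 (wild type) on the high fat diet, against 5.35, 5.66, 6.84 and 6.35 (knockout) and 7.38, 6.29, 6.93 and 6.64 (wild type) on the low fat diet. High fat and low fat arrays were fully separated, and the fall was 2.09 ± 0.22. The peroxisomal thioesterase genes Acot4 and Acot3 fell by 2.60 ± 0.18 and 3.23 ± 0.19. Acot3 was under 4 in all high fat and all knockout arrays, so it passed the filter through the low fat wild-type arrays alone. Its average was -1.60 with the floor. The rise of Cpt1a was not called without the 5 arrays rich in muscle transcripts, nor in several fits that left out 1 array.

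Respiratory chain and citric acid cycle genes fell in 14 of 30, none rose, and all 30 had a negative average, with a median of -0.18. The changes were small, with medians of -0.16 in knockout and -0.27 in wild-type fat. Called lower were 2 members in knockout fat, 8 in wild-type fat and 1 in both. At the limit of 1 times the average only Uqcrc2 was like-size. Uqcrc2, a core subunit gene of complex III, was between 11.64 and 11.82 on the high fat diet and between 11.93 and 12.22 on the low fat diet, with a fall of 0.35 ± 0.07 made of 0.34 in knockout and 0.36 in wild-type fat. Uqcrfs1, the iron-sulfur subunit gene of that complex, fell by 0.45 ± 0.09, and Ndufs1 of complex I by 0.36 ± 0.09. Only 5 of the 30 were called lower without the 5 arrays rich in muscle transcripts.

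Enzyme genes of branched-chain amino acid breakdown fell in 15 of 19 with none rising and a median of -0.53. Acadsb, a short-chain acyl-CoA dehydrogenase gene, was at 10.66, 10.87, 10.85 and 10.99 (knockout) and 11.45, 11.46, 11.50 and 11.29 (wild type) on the high fat diet, against 11.56, 11.55, 11.52 and 11.81 (knockout) and 12.13, 11.77, 11.95 and 11.93 (wild type) on the low fat diet. The diets did not overlap within or across the genotypes, and the fall was 0.64 ± 0.08. Ivd, for isovaleryl-CoA dehydrogenase, fell by 0.87 ± 0.12 and Hibch, of valine breakdown, by 0.53 ± 0.08. Ppm1k, of the like-size falls, acts on the complex encoded by Bckdha, Bckdhb and Dbt, which fell too.

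Insulin and glucose genes fell in 12 of 19 and rose in 2, Grb14 and Ptpn1, both known as brakes on the insulin receptor. The insulin receptor gene Insr had 9.72, 9.85, 9.76 and 9.95 (knockout) and 10.11, 10.01, 10.23 and 10.02 (wild type) on the high fat diet, against 10.17, 10.37, 10.53 and 10.72 (knockout) and 11.36, 10.99, 11.35 and 11.42 (wild type) on the low fat diet. It fell by 0.91 ± 0.09, with -0.63 in knockout and -1.19 in wild-type fat (adjusted p = 0.052 for the difference), and the diets overlapped only across the genotypes. Pde3b was between 11.14 and 11.72 on the high fat diet and between 11.73 and 12.29 on the low fat diet, and Pfkfb3, a regulator of glycolysis, fell by 0.67 ± 0.10. Only 6 of the 19 were called lower without the 5 arrays rich in muscle transcripts.

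Markers of mature adipocytes fell in 6 of 17 and rose in 1, Cavin1, with a median of -0.09. Pparg, the central transcription factor of adipocytes, was at 10.73, 11.52, 11.07 and 11.28 (knockout) and 11.15, 11.41, 11.39 and 11.22 (wild type) on the high fat diet, against 11.53, 11.59, 11.51 and 11.56 (knockout) and 12.50, 11.95, 12.29 and 12.35 (wild type) on the low fat diet. It fell by 0.69 ± 0.11, with -0.40 in knockout and -0.98 in wild-type fat. Klf15, a transcription factor gene of amino acid and glucose metabolism, fell by 1.31 ± 0.15 and Pck1, of glycerol synthesis, by 0.68 ± 0.08, both with no overlap of the diets. The part of adipocyte content in the results on brown fat, oxidation and synthesis genes was not tested. The rise of Cavin1 was not called without the 5 arrays rich in muscle transcripts, nor in most fits that left out 1 array.

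Clock genes and the PAR bZIP factors they control fell in 10 of 17 and rose in 2, with a median of -0.63. The rises of the average were of Arntl, which encodes the activator BMAL1, by 1.28 ± 0.26, and of Nfil3, a repressor of PAR bZIP targets, by 0.48 ± 0.15. No member, these 2 included, was called higher within wild-type fat, against 4 within knockout fat. Called lower were 10 members in knockout and 8 in wild-type fat, and the difference between genotypes was called for 4. Hlf, a PAR bZIP factor gene, had 5.42, 5.98, 5.39 and 5.43 (knockout) and 6.77, 6.90, 6.53 and 6.13 (wild type) on the high fat diet, against 8.38, 8.43, 8.05 and 7.82 (knockout) and 7.49, 8.23, 8.19 and 8.08 (wild type) on the low fat diet. The diets did not overlap, and it fell by 2.61 in knockout against 1.42 in wild-type fat (adjusted p = 0.0153 for the difference). Per1, of the period repressors, was between 8.12 and 8.63 on the high fat diet and between 8.90 and 9.97 on the low fat diet, and fell by 1.03 ± 0.13. Dbp, another PAR bZIP gene, had differences of -1.54 in knockout and -1.31 in wild-type fat. Ciart, a repressor of the clock, had -2.31 and -2.34 in the same order. The sources used here do not say whether all groups were sampled at the same hour, so sampling time and diet cannot be told apart for these genes.

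CLOCK and BMAL1 bind E-boxes, and PAR bZIP factors bind D-boxes. The promoters of Per1 and Ciart are shown because they hold E-boxes and, among genes of the promoter table, belong to the 5 members of the clock list with the smallest p. They were taken from RefSeq (GRCm38.p6) as above, with CACGTG in capitals, Per1 from chr11:69098699-69098998 on the plus strand and Ciart from chr3:95882179-95882478 on the minus strand.
Per1: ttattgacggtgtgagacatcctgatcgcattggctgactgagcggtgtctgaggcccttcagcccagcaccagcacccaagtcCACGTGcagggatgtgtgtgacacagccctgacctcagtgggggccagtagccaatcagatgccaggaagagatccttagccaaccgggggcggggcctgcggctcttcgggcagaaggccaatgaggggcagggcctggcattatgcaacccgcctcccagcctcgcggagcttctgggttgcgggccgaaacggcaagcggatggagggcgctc
Ciart: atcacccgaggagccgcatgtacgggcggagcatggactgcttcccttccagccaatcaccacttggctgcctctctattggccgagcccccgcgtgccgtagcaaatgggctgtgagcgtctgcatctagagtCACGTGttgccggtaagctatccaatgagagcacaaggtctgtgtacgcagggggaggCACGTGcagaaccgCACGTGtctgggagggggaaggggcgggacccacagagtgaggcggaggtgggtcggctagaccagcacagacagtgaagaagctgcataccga
The table holds a second window of Per1, at chr11:69099902-69100201 on the plus strand, which had 0 copies of CACGTG. The window of Per1 shown held 1 and that of Ciart 3. Of the 9 clock list genes that fell and had a promoter in the table, 3 held CACGTG (33.3%) and 1 the D-box TTATGTAA, searched on both strands. Over all 27025 genes of the table the shares were 8.09% and 1.11%, and over all genes tested 11.7% and 0.667%. The windows of Hlf, Nr1d1 and Dbp held neither motif, which says only that these letters do not occur there.

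Cholesterol synthesis genes rose in 7 of 14 and fell in 1, Fdft1, with a median of 0.48. Dhcr7, of the last step to cholesterol, rose by 0.85 ± 0.08, with 1.01 in knockout and 0.69 in wild-type fat. Mvd, of the mevalonate pathway, rose by 0.61 ± 0.10, mostly in knockout fat (0.96 against 0.26 in wild type, adjusted p = 0.0367 for the difference). Fdft1, for squalene synthase, fell by 0.71 in knockout and 0.72 in wild-type fat.

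Immediate early genes rose in 7 of 17 and fell in 2, Nr4a3 and Ier3. Egr2, a zinc finger factor gene induced by growth signals, had 11.30, 10.33, 10.35 and 10.20 (knockout) and 9.19, 10.10, 8.89 and 9.62 (wild type) on the high fat diet, against 7.67, 8.55, 7.82 and 6.76 (knockout) and 6.37, 5.68, 5.45 and 6.57 (wild type) on the low fat diet. Every high fat array lay above every low fat array, and the rise was 3.14 ± 0.26. The stress factor gene Atf3 rose by 2.45 ± 0.31. Genes of the unfolded protein response rose in 7 of 18 and fell in 1, Herpud1. The chaperone partner gene Sdf2l1 rose by 1.63 in knockout and 1.82 in wild-type fat, Edem1, of the disposal of misfolded glycoproteins, by 1.13 and 0.97 in that order, and Ddit3, for CHOP, by 0.62 ± 0.12 on average. Without the 5 arrays rich in muscle transcripts 4 of the 18 were called higher.

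Redox genes rose in 4 of 21 (Hmox1, Txnrd1, Sod2 and Sod3) and fell in 6, with a median of -0.06. Among all genes tested 23.4% rose and 19.3% fell, so the list as a whole did not stand out by its rises. Hmox1, for the heme-degrading oxygenase 1, rose by 1.61 ± 0.17, and the extracellular superoxide dismutase gene Sod3 by 0.72 ± 0.09, mostly in wild-type fat (0.29 in knockout, 1.15 in wild type). Gstt2, a glutathione transferase gene, fell by 0.81 ± 0.10. Without the 5 arrays rich in muscle transcripts 2 rose and 3 fell.

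In the list of sirtuins and NAD enzymes 3 of 15 rose (Sirt7, Nnmt and Bst1) and 3 fell (Sirt1, Nampt and Nmnat3). Both counts were near the shares of all genes tested, 23.4% higher and 19.3% lower, and the list median was -0.06. Sirt1, the targeted gene, ran from 8.30 over a median of 8.89 to 9.10 on the high fat diet and from 8.94 over 9.39 to 9.88 on the low fat diet. The diets overlapped slightly. With 8 against 8 arrays it fell by 0.48 ± 0.13 (95% confidence interval -0.75 to -0.21, adjusted p = 0.00645), by 0.50 in knockout and 0.46 in wild-type fat. Over both diets no tested member of the list, Sirt1 among them, was called lower in knockout than in wild-type fat, and 1 was called higher. The Sirt1 probe set could not be placed relative to the deleted exons, so its level does not check the genotype labels. Nampt, the rate-limiting enzyme gene of NAD salvage, fell by 0.60 ± 0.14, and Nmnat3, of mitochondrial NAD synthesis, by 0.83 ± 0.14. Bst1, an NAD-consuming surface enzyme gene of blood and stromal cells, rose by 1.44 ± 0.20. Without the 5 arrays rich in muscle transcripts 1 member rose. Falls numbered 7 with every array centred on its median, 6 with quantile normalization, 6 without FABP4-cre-LowFatDiet replicate 1 and 5 without WT-LowFatDiet replicate 2.

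Markers of other cell types moved as follows, and their part in the results above was not tested. Of stromal and progenitor markers 5 of 12 rose and 2 fell, with Thy1 up by 1.0 ± 0.14 (0.51 in knockout, 1.49 in wild type), Fap, a fibroblast protease gene, up by 0.65 ± 0.13 and Ebf2, of beige progenitors, down by 0.75 in knockout and 0.75 in wild-type fat. The list medians were of opposite sign, -0.17 in knockout and 0.56 in wild-type fat. In knockout fat 1 rose and 3 fell, and in wild-type fat 6 rose and 1 fell. The difference between genotypes was called for 4, all more positive in wild-type fat. Endothelial genes fell in 5 of 15 and rose in 1, Cldn5, a tight junction gene that rose by 1.07 ± 0.11, and without WT-LowFatDiet replicate 3 there were 3 rises. Vegfa fell by 1.15 ± 0.15 and its receptor gene Kdr by 0.66 ± 0.12. Mesothelial genes fell in 6 of 11, with medians of -1.59 in knockout and 0.11 in wild-type fat, and 9 were called lower in knockout and none in wild-type fat. Wt1 fell by 1.11 ± 0.21, Rspo1 by 0.92 ± 0.14 and Bnc1 by 1.55 ± 0.30, each overlapping in wild-type fat. Without WT-HighFatDiet replicate 4, the array richest in mesothelial and epithelial transcripts, 10 of the 11 mesothelial genes fell. Of 14 skeletal muscle genes only Pvalb was called, with 9.33, 9.59, 9.52 and 9.88 (knockout) and 6.27, 6.89, 8.05 and 7.31 (wild type) on the high fat diet, against 6.17, 8.99, 4.57 and 3.96 (knockout) and 5.21, 3.69, 8.91 and 7.83 (wild type) on the low fat diet and an average of 2.19 ± 0.74. Its call was lost in 4 of the 16 fits that left out 1 array. The nerve list had 2 tested genes, S100b, with an average of 0.78 made of -0.46 in knockout and 2.02 in wild-type fat, and Mbp, with an average of -0.25, whose call was lost under 6 of 27 other settings.

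The average misled most where the genotypes moved apart. Of 132 genes called in both genotypes in opposite directions (1.09%), 111 fell in knockout and rose in wild-type fat (0.919%), 21 did the reverse (0.174%), and 10 of the 132 were called for the average. Among genes called for both the average and the difference, the smallest p-values for a more positive effect in wild-type fat were those of Ptchd4, Mest, Sfrp5, Klf14 and Abat. Sfrp5 had 12.10, 11.87, 12.15 and 12.12 (knockout) and 11.68, 12.14, 12.14 and 12.07 (wild type) on the high fat diet, against 11.77, 11.16, 11.45 and 10.57 (knockout) and 6.83, 7.37, 6.68 and 7.10 (wild type) on the low fat diet. The low fat wild-type arrays alone were low, and the average of 2.92 ± 0.15 was made of 0.82 in knockout and 5.01 in wild-type fat. Mest, an imprinted gene that marks fat expansion in mice, was at 11.98, 12.26, 12.14 and 12.25 (knockout) and 12.40, 12.70, 12.76 and 12.62 (wild type) on the high fat diet, against 12.53, 12.35, 11.99 and 12.14 (knockout) and 9.71, 9.41, 8.87 and 9.07 (wild type) on the low fat diet. Again the low fat wild-type arrays stood alone, with differences of -0.09 in knockout and 3.35 in wild-type fat. Klf14, a zinc finger factor gene, had -0.56 and 3.91, Ptchd4 0.33 and 4.97 and Abat, of GABA breakdown, -0.83 and 2.18, knockout before wild type.

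**Figure D5:**
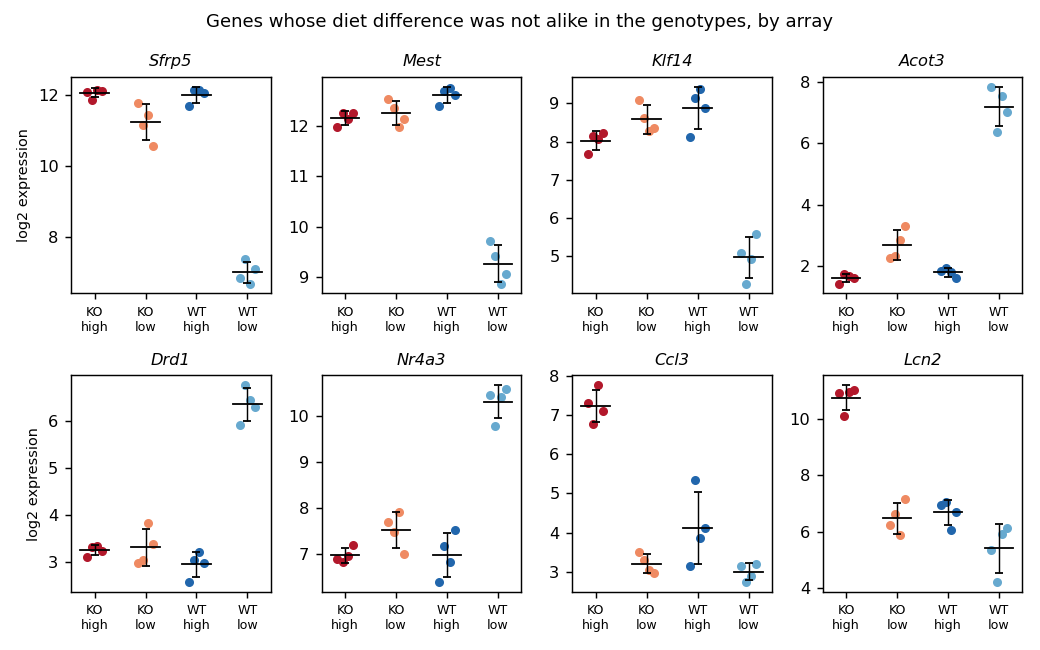
Log2 expression of 8 genes whose diet effect differed between genotypes, in each array by group (KO, knockout; WT, wild type; high and low, the diets). Points are arrays, the line is the mean and the bar the SD of 4 arrays. Low-fat-fed wild type stands apart for Sfrp5, Mest, Klf14, Acot3, Drd1 and Nr4a3, and high-fat-fed knockout for Ccl3 and Lcn2.

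In the other direction the smallest p-values belonged to Drd1, Acot3, Nrcam, Npc1 and Nr4a3. Drd1 and Acot3 reached a log2 of 4 only in the low fat wild-type arrays and so were tested through that group alone. For Nrcam the high fat knockout arrays were enough to pass the filter. The p-values of these genes are therefore a description and not independent support. Drd1, for a dopamine receptor, had 3.10, 3.33, 3.34 and 3.25 (knockout) and 2.58, 3.06, 3.21 and 2.99 (wild type) on the high fat diet, against 2.98, 3.04, 3.84 and 3.39 (knockout) and 5.91, 6.75, 6.45 and 6.29 (wild type) on the low fat diet. Only the low fat wild-type arrays were high. The differences were -0.06 in knockout and -3.39 in wild-type fat, and the average of -1.72 was -1.17 with values floored at 4. Nr4a3, an orphan nuclear receptor gene, had -0.55 and -3.31, Acot3 -1.08 and -5.39 and Npc1, of cholesterol export from lysosomes, 0.39 and -1.80, knockout before wild type. Nrcam, a neural adhesion molecule gene, was high in the high fat knockout arrays at 6.34, 5.80, 6.41 and 6.55 and at most 4.11 in the other groups, with an average of 1.53 ± 0.13.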

How the data were processed

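White adipose tissue RNA (5 ug, purified with Trizol and columns per the labels' protocols) was measured on 1 Affymetrix array for each of 16 samples. Per the submitters' processing notes, the authors used R 2.11.1 and GCRMA 2.20.0, and what they deposited is a log2 value for each probe set. GCRMA models background from probe sequence, so low values depend on that model. Where setting values under a log2 of 4 to 4 moved a named gene's effect by over 1.5 times, that value is also given. Scan dates were not used here.

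From these values, probe sets with 1 gene symbol in GEO's platform annotation were kept (34945 of 45037, with 932 holding several and 9160 none). The probe set with the highest mean over 16 arrays stood for each of 18193 genes, and 12078 genes with a log2 of at least 4 in at least 4 arrays were tested. limma 3.58.1 in R 4.3.3 fitted 1 mean for each of 4 groups. Contrasts gave the average diet effect, the effect in each genotype, their difference and, added after the data were seen, the average genotype difference. p-values were adjusted over all genes tested (Benjamini-Hochberg, threshold 0.05), and the script was tested on simulated data. No arrays had identical values.

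The genes, lists and rules were chosen with earlier results of these data known. Named were the 10 largest like-size rises and falls, up to 3 members of each list with the smallest p, the 5 genes in each direction with the smallest p for the genotype difference in diet effect, and Sirt1, Lep, Pparg, Insr, Casp1 and Adgre1. Further genes, such as the members of counts of 5 or fewer, were named after their values were seen. Of 589 list entries 536 matched the table and 483 were tested. Same-numbered arrays of different groups did not deviate together (24 pairs, r between -0.321 and 0.199, 5 over 0.1), so replicate numbers were not used as pairs. Alternatives covered the model, the filter, the floor, weights, scaling, choice of probe sets, threshold, a replicate block and each array left out.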

Additional observations from a re-analysis of the deposited data

Results flagged for a closer look

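Within a group of 4 arrays, 25 of 444 group tests of named genes had 1 array far from the other 3 (gap over range above Dixon's 95% value of 0.829), where chance flags about 1 in 20. In the FABP4-cre-HighFatDiet group these were Cdca8 at 8.68 in replicate 1 (others 8.02 to 8.12), Cdkn1c at 5.06 in replicate 4 (others 4.84 to 4.88) and Comp at 7.53 in replicate 4 (others 6.98 to 7.06). That group also had Egr2 at 11.3 in replicate 1 (others 10.2 to 10.35), Hlf at 5.98 in replicate 2 (others 5.39 to 5.43) and Lcn2 at 10.09 in replicate 2 (others 10.92 to 11.03). It further had Nampt at 8.69 in replicate 1 (others 9.56 to 9.72), Pfkfb3 at 12.13 in replicate 2 (others 11.65 to 11.72) and Uqcrc2 at 11.65 in replicate 3 (others 11.71 to 11.72). In the WT-HighFatDiet group these were Aurkb at 6.76 in replicate 2 (others 5.83 to 5.89), Cdca8 at 6.58 in replicate 3 (others 7.38 to 7.5) and Il15ra at 8.13 in replicate 1 (others 7.53 to 7.61). That group also had Sfrp5 at 11.68 in replicate 1 (others 12.07 to 12.14) and Uqcrfs1 at 11.19 in replicate 4 (others 11.38 to 11.4). In the FABP4-cre-LowFatDiet group these were Acadsb at 11.81 in replicate 4 (others 11.52 to 11.56), Asb4 at 5.47 in replicate 2 (others 3.9 to 4.02) and Ddit3 at 8.24 in replicate 4 (others 7.79 to 7.83). That group also had Dennd2d at 7.73 in replicate 4 (others 6.57 to 6.73). In the WT-LowFatDiet group these were Bnc1 at 7.14 in replicate 3 (others 9.01 to 9.33), Gpam at 12.58 in replicate 2 (others 12.96 to 13.04) and Gstt2 at 10.14 in replicate 2 (others 10.54 to 10.61). That group also had Insr at 10.99 in replicate 2 (others 11.35 to 11.42), Itgax at 5.25 in replicate 1 (others 3.45 to 3.73) and Nmnat3 at 9.32 in replicate 2 (others 8.71 to 8.79). It further had Ucp1 at 7.8 in replicate 4 (others 10.05 to 10.35).

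For 27 named genes the diet effect differed between knockout and wild type by limma's test of the difference itself (Benjamini-Hochberg adjusted p under 0.05). The knockout minus wild-type difference was negative for Ptchd4 (-4.64), Klf14 (-4.46), Sfrp5 (-4.19), Mest (-3.45), Abat (-3.01), Col15a1 (-2.94), S100b (-2.47), Sfrp4 (-2.06), Bnc1 (-1.99), Gzma (-1.91), Hlf (-1.2), Lep (-1.15), Thy1 (-0.98) and Sod3 (-0.86). It was positive for Acot3 (4.3), Drd1 (3.33), Lcn2 (3), Ccl3 (2.9), Nr4a3 (2.76), Trem2 (2.55), Nrcam (2.3), Npc1 (2.19), Slc37a2 (1.98), Bub1 (1.53), Clec7a (0.87), Mmp3 (0.81) and Mvd (0.7). For these genes the average lies between unlike diet effects.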

How the results depend on the processing

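The count of rises stayed within 1.5 times the reported 2822 under every alternative run but 1, and that of falls within 1.5 times 2334 under all but 2. With every probe set tested on its own 5172 rose and 5905 fell, and with an adjusted p under 0.01 1515 genes fell. The 1569 genes whose diet effect differed between genotypes became 2898 over every probe set, 576 at an adjusted p under 0.01, 2481 with array weights and 424 without the 5 arrays rich in muscle transcripts, which was chosen with the data in view and leaves 11 arrays. Like-size genes numbered 780 in place of 65 with the limit at 1 times the average effect. Without the 5 arrays they numbered 27, 18 of them among the 65, and all 65 kept their call and direction for the average. The causes of these shifts were not tested, beyond fewer arrays or a different number of features where the alternative itself changes that.

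Leaving out each array in turn gave 2577 to 2816 rises, 2070 to 2547 falls, 1098 to 2382 differences between genotypes and 49 to 88 like-size genes, of which 43 to 51 were among the 65. The 2382 were reached without WT-LowFatDiet replicate 2, and the 88, with 50 of the 65, without WT-HighFatDiet replicate 1. With the replicate block 2777 genes rose, 2325 fell, 1390 differed between genotypes and 66 were like-size, and the block ended no call of a gene named by the rule. Over 111 genes named by the rule and up to 27 alternatives each 2966 of 2993 values kept their call, 27 lost it and 0 reversed. The lost calls were those of Cd79a (14), Mbp (6), Pvalb (4), Abat (adjusted p = 0.188, limma without the interaction term), Npc1 (0.0717) and S100b (0.0704). Arrays hold no read depth, and signal near background limits genes under a log2 of 4.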
